A study of Homo sapiens with 6 samples.

Results

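The splicing factors described here are the genes for SR proteins (SRSF and TRA2), hnRNP proteins, Sm and other snRNP proteins (SNRP), the SF3A and SF3B subunits with U2AF, the PRPF proteins and the LSM proteins. They were picked by a rule on gene symbols, which was set with earlier results of these data known. With 5 pseudogenes of such a symbol left out, this gave 89 genes of the 26255 in the expression table. Of these, 83 reached 0.1 FPKM in at least 3 of the 6 libraries and were tested among 16020 genes. FPKM is the number of fragments per kilobase of transcript, scaled to the size of the library, so levels can be set side by side between genes. The 6 genes below that limit were HNRNPCL1, HNRNPCL2, HNRNPCL3, HNRNPCL4 and SNRPN, each listed at 0 in every library, and SRSF12, which was between 0 and 0.233 FPKM.

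The RNA-seq experiment used the human lung cancer line H1299 and set 3 libraries of cells with a control shRNA (shControl) against 3 libraries of cells with an shRNA that targets Ephexin1 (shEphexin1). Ephexin1 is a guanine nucleotide exchange factor encoded by NGEF, and the experiment asked which genes follow its loss. Both shRNAs were expressed from a pSilencer plasmid under the U6 promoter, which the labels give as the neo form and the methods as the hygro form, and cells were grown under drug selection. The methods speak of stable knockdown clones and the 3 shEphexin1 library names share 1 stem, so these libraries may come from 1 clone. Nothing in the labels says that replicates were separate cultures, so the p-values measure the spread between libraries, which may be technical.

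Splicing factors remove introns from precursor mRNA. Sm proteins form a ring on the U1, U2, U4 and U5 small nuclear RNAs, LSM proteins form a similar ring on U6 or, with LSM1, act in mRNA decay in the cytoplasm, and SF3A, SF3B, U2AF and PRPF proteins recognise the branch site and 3′ splice site or build the catalytic core. SR proteins bind exons and mostly promote their inclusion, whereas many hnRNPs oppose it. Many SR and hnRNP genes hold down their own mRNA through exons that lead to its decay.

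NGEF, the targeted gene, was at 13.3, 11.7 and 16.4 FPKM (shControl) against 9.81, 8.25 and 10.5 FPKM (shEphexin1). All shEphexin1 values were below all shControl values, with a log2 fold change of -0.53 (SE 0.16) that did not pass the test over all genes (adjusted p = 0.103). Replicate 2 stood apart from replicates 1 and 3 in both groups. Across the 83 splicing factors, GC content was set against each library's deviation from the mean of its own group. The Spearman correlation was -0.82 and -0.85 in the replicate 2 libraries and 0.48 to 0.80 in the others, a description over genes that share each library. The mesenchymal gene VIM (1979 to 2670 FPKM) was expressed, and so were the epithelial keratin genes KRT18 and KRT8, which were lower in shEphexin1 (67.6 to 109 against 36.3 to 54.7 FPKM for KRT18, log2 fold change -0.94, adjusted p = 0.0439), and their part in the results was not tested. The leukocyte gene PTPRC, the erythroid gene HBB and the neuronal splicing regulator SRRM4 were listed at 0, and PECAM1 and RBFOX3 did not exceed 0.154 FPKM. The 10 most highly expressed genes held 24.7% to 26.4% of all FPKM in shControl and 27.7% to 30.3% in shEphexin1. Read counts are not part of the values, so the depth is unknown. In bulk RNA, fewer cells with a transcript and less of it per cell cannot be told apart.

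Most splicing factor mRNAs had a slightly negative fold change in the Ephexin1-depleted cells, and few passed the test. Of the 83 genes, 3 were lower (HNRNPA1, HNRNPF and SNRPD1), none was higher, and all 3 fell to about the same extent, to between 64.8% and 67.8% of the shControl mean. Negative fold changes that did not pass the test were spread over Sm, LSM, hnRNP and SR genes. Most were smaller, but those of LSM5 (-0.61), SNRPB (-0.60) and SNRPF (-0.56) were of like size. The medians of the SF3 and U2AF genes and of the PRPF genes were closest to 0.

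No splicing factor was called at a false discovery rate of 0.025 and a fold difference of 2, where 1.89% of all genes tested were. With a term in the model that lets replicate 2 differ from replicates 1 and 3, a loess correction for GC content and transcript length, replicates 1 and 3 alone, or quantile normalization, the count stayed at 0, against 3.52%, 3.57%, 2.68% and 1.93% of all genes. At an adjusted p of 0.05 with no minimum fold, 3 splicing factors were lower, which is 3.61% of those tested and near the 4.32% of all genes. That share of all genes was larger at high levels. It was 3.45% from 10 to 30 FPKM, 6.58% from 30 to 100, 10.9% from 100 to 300 and 30.5% from 300 FPKM. Of the splicing factors in these ranges, 0 of 23, 1 of 33, 1 of 18 and 1 of 3 were lower. No splicing factor was higher, against 2.69% of all genes. At an unadjusted p of 0.05, 18 were lower and 0 higher, where 12.8% and 10.5% of all genes were. The median log2 fold change was -0.20 over the splicing factors and -0.0093 over all genes tested. In all, 67 of 83 had a log2 fold change below 0, compared with 51.1% of all genes. With median centring 64 were below 0 (49.8% of all genes) and with replicates 1 and 3 alone 66 (51.1% of all genes), while with quantile normalization the count fell to 51 (49.6% of all genes). The 95% interval of the fold difference lay within 2-fold in both directions for 80 of the 83, and reached past it for HNRNPH2, SNRPB and LSM5.

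**Figure D1:**
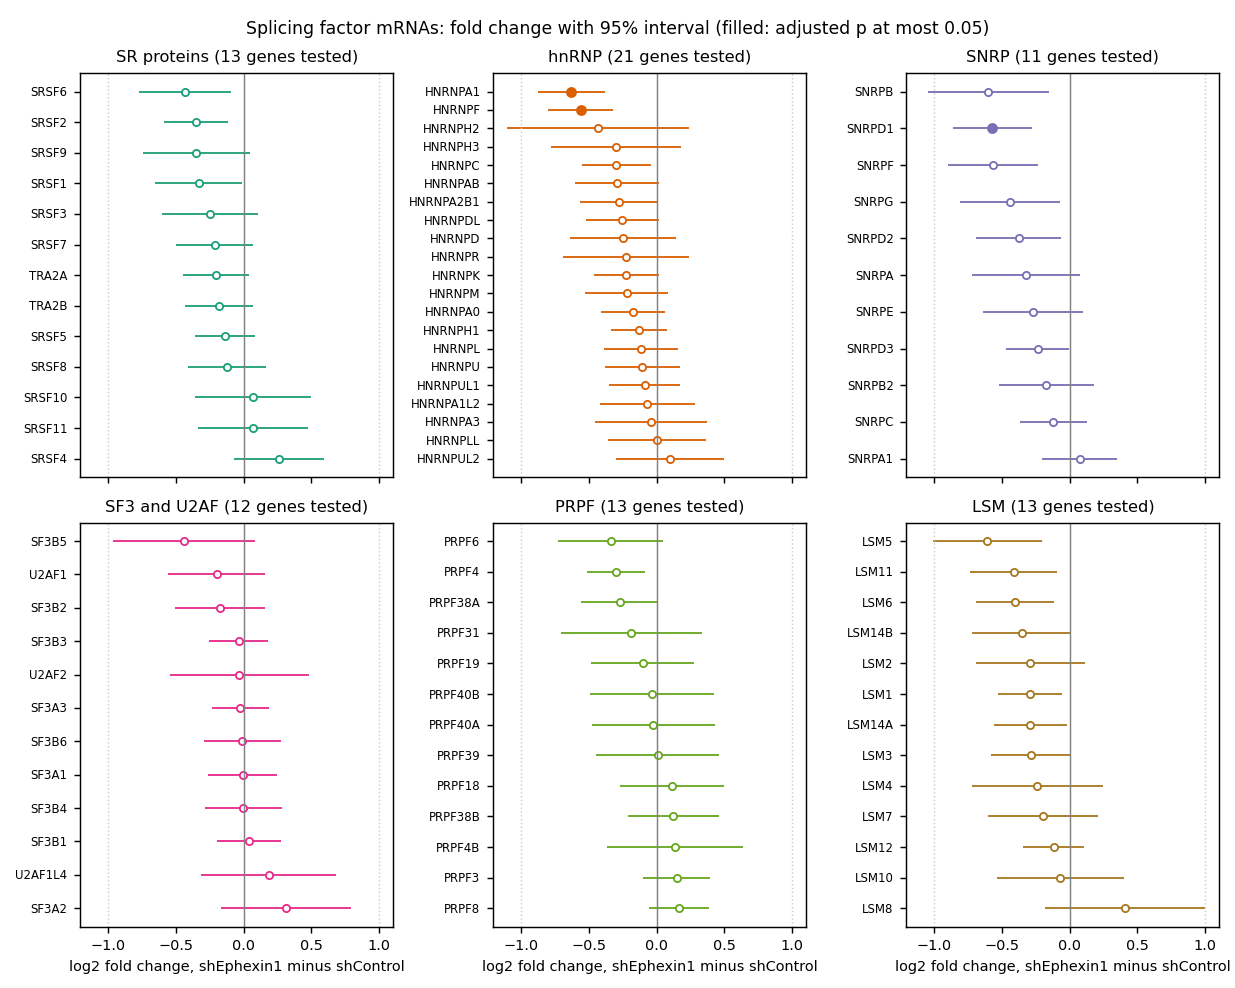
Log2 fold change (shEphexin1 minus shControl, horizontal axis) of the 83 splicing factors tested, by class, with 95% intervals of the linear model. Filled points are HNRNPA1, HNRNPF and SNRPD1, the 3 genes that passed an adjusted p of 0.05, and dotted lines mark a 2-fold difference, which no point reaches.

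The groups did not overlap for 27 splicing factors. In 26 of them every shEphexin1 library was below every shControl library, which is 31.3% of those tested against 15.4% of all genes. PRPF8 was the 1 gene with every shEphexin1 library above, against 12.8% of all genes. The 26 lower genes were 8 hnRNP, 6 SNRP, 6 LSM, 4 SR protein and 2 PRPF genes. For the remaining 56 the groups overlapped.

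These counts rose when replicate 2 was handled apart. In replicates 1 and 3 alone, 21 splicing factors were lower and 0 higher at an adjusted p of 0.05 (25.3% lower, against 10.4% of all genes lower and 6.89% higher). All 21 were also lower in shEphexin1 replicate 2 than in shControl replicate 2, but the like share over all genes is not given here. With a term for replicate 2 in the model, 33 were lower and 3 higher (LSM8, SF3A2 and SRSF4), against 17.1% and 12.2% of all genes. After the loess correction for GC content and length, 28 were lower and 4 higher (LSM8, SF3A2, SF3B6 and PRPF18), against 16.5% and 14.1% of all genes. HNRNPA1, HNRNPF and SNRPD1 were among the lower genes in each of these fits. Quantile normalization left 1 lower, HNRNPF, against 3.11% of all genes, and 0 higher, against 2.56%.

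Most of the splicing factors tested were expressed at a high level. Their median was 42.0 FPKM, against 6.97 FPKM over all genes tested, 3 of the 83 lay below that all-gene median, and together they held 1.03% to 1.27% of the total FPKM of a library. Over all genes, the log2 fold change fell with level: the median was 0.19 below 1 FPKM, -0.041 from 10 to 30 FPKM, -0.10 from 30 to 100 FPKM, -0.20 from 100 to 300 FPKM and -0.43 from 300 FPKM. The splicing factors had medians of -0.10 (23 genes), -0.20 (33 genes), -0.28 (18 genes) and -0.38 (3 genes) in the 4 upper ranges. Genes of like level were thus lower as well, by less than the splicing factors in the ranges up to 300 FPKM and by slightly more above it, and the part of level in the result was not tested.

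**Figure D2:**
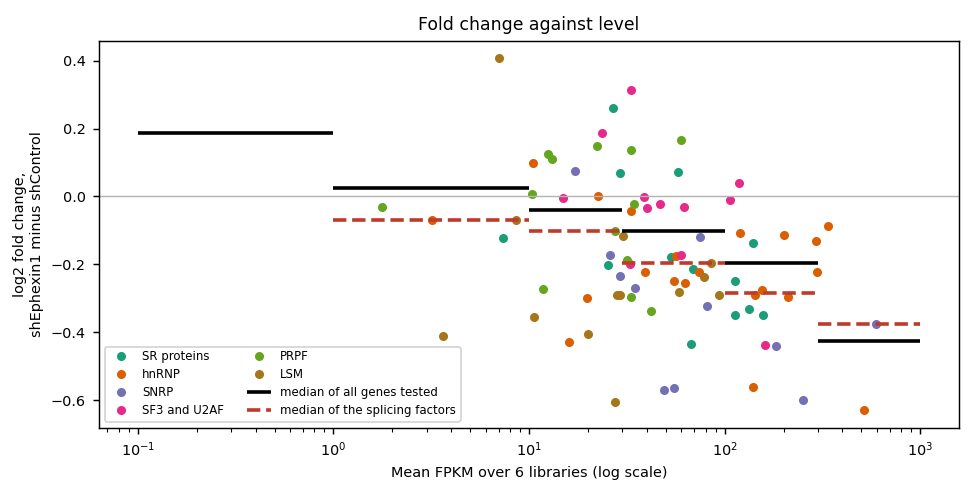
Log2 fold change (shEphexin1 minus shControl) of each splicing factor against its mean FPKM over 6 libraries (log scale), coloured by class. Black lines are the median of all genes tested in that range of level and dashed red lines the median of the splicing factors, -0.10 against -0.20 for genes from 30 to 100 FPKM.

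The promoters were searched for short motifs. RefSeq promoter windows (250 bases before the start, table on GRCh38.p14) were at hand for 76 of the 89 genes, as 101 windows. The letters CCGGAAG, the core of the sites that ETS factors bind, occurred on either strand in 24.8% of these windows and in 8.52% of all 35116 windows. The CCAAT box (CCAAT) was in 39.6% against 32%, the GC box (GGGCGG) in 52.5% against 42.6%, the E-box (CACGTG) in 8.91% against 6.34% and the TATA box (TATAAA) in 6.93% against 10.7%, each searched on both strands. The 23 genes with the ETS letters had a median log2 fold change of -0.12 and the 48 tested genes with a window but without them of -0.22. A match is a description of the letters and not a bound site. Of the Sm ring genes, 6 had a window and 4 of these held the letters (SNRPB, SNRPD2, SNRPE and SNRPG). Sequences are shown for windows that reach at most 30 bases into the annotated gene, which leaves out those of SNRPB, SNRPD2 and HNRNPF although they hold the letters. Among the windows left for the genes named by rule, the 2 of lowest and the 2 of highest fold change were picked as examples (20 bases of the LSM8 window lie inside the gene). Capitals mark CCGGAAG or its complement CTTCCGG. The windows were placed on GRCh37 by an exact and unique match, at chr7:32534896-32535145 (minus strand) for LSM5, chr20:62612235-62612484 (plus strand) for PRPF6, chr19:2236573-2236822 (plus strand) for SF3A2 and chr7:117823968-117824217 (plus strand) for LSM8.
LSM5: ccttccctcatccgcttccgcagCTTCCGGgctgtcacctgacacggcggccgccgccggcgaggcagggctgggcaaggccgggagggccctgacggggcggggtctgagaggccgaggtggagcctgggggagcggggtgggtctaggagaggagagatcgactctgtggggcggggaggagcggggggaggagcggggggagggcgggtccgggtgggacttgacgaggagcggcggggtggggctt
PRPF6: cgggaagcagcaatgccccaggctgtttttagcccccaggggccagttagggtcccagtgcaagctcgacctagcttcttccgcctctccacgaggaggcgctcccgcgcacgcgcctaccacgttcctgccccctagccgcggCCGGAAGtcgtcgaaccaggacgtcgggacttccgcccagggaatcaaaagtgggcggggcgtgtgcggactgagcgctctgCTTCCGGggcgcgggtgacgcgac
SF3A2: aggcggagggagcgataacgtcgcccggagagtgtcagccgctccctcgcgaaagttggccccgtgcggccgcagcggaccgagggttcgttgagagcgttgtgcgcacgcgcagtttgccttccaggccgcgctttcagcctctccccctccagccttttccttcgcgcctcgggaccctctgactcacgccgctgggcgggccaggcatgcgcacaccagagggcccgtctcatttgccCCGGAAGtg
LSM8: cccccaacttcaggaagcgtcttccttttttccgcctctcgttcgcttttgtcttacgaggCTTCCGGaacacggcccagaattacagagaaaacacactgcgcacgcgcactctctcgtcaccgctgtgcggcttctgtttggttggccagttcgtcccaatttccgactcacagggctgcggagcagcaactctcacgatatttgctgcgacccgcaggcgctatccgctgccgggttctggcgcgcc

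Among the hnRNPs, HNRNPA1 and HNRNPF fell. HNRNPA1 binds splicing silencers and represses exon inclusion, and its gene lies at chr12:54673977-54680872 (GRCh37, plus strand). It was at 602, 616 and 648 FPKM (shControl) against 433, 417 and 360 FPKM (shEphexin1), a mean of 622 ± 23.5 against 403 ± 38.2 (SD, n = 3 libraries each). The groups were far apart, and the lowest value was that of shEphexin1 replicate 3. The log2 fold change was -0.63 (SE 0.11, adjusted p = 0.0186). HNRNPA1 shares sequence with many copies, and reads may be split among them: the pseudogene HNRNPA1P10 was at 83.1, 29.0 and 105 FPKM (shControl) against 45.9, 20.9 and 73.5 FPKM (shEphexin1), and HNRNPA1L2 had a log2 fold change of -0.069. With quantile normalization HNRNPA1, the splicing factor with the second highest level, had a log2 fold change of -0.24 (adjusted p = 0.363, from 0.00133 to 0.363 over all alternatives).

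HNRNPF, which binds runs of G near splice sites, is at chr10:43881065-43904634 (minus strand). It was at 174, 152 and 173 FPKM (shControl) against 120, 108 and 109 FPKM (shEphexin1), with no overlap. The log2 fold change was -0.56 (SE 0.10, adjusted p = 0.0231), and with quantile normalization it was -0.41 (adjusted p = 0.035, from 0.000393 to 0.139 over all alternatives). Left out in turn, shControl replicates 1 and 3 and shEphexin1 replicates 1 and 3 each ended the calls of HNRNPA1, HNRNPF and SNRPD1, with adjusted p from 0.0593 (HNRNPA1 without shEphexin1 replicate 3) to 0.177 (SNRPD1 without shControl replicate 1). Without shControl replicate 2 that of SNRPD1 was lost (adjusted p = 0.078), and without shEphexin1 replicate 2 all 3 held.

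The other abundant hnRNPs did not pass the test. HNRNPK, which binds C-rich stretches, was at 314, 334 and 312 FPKM (shControl) against 276, 299 and 250 FPKM (shEphexin1), with every shEphexin1 library lower (log2 fold change -0.22, adjusted p = 0.249). HNRNPC, which coats U-rich stretches, was at 228, 237 and 229 FPKM against 183, 213 and 172 FPKM (-0.30, adjusted p = 0.155). HNRNPA2B1, a relative of HNRNPA1, was at 163, 182 and 165 FPKM against 149, 155 and 120 FPKM (-0.28, adjusted p = 0.235). These 3 genes did not overlap between groups, and HNRNPA2B1 was lowest in shEphexin1 replicate 3. For HNRNPL (-0.11), HNRNPU (-0.11) and HNRNPUL1 (-0.088) the groups overlapped, and these differences and that of HNRNPK turned positive with quantile normalization. Over the 21 hnRNP genes tested the median log2 fold change was -0.22, and 19 were below 0.

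Of the classes and complexes counted here, the Sm ring had the lowest median. The 7 genes of the ring, SNRPB, SNRPD1, SNRPD2, SNRPD3, SNRPE, SNRPF and SNRPG, all had a log2 fold change below 0, with a median of -0.44 and a range from -0.60 to -0.23. Their summed level was 73.9% of the shControl mean, where the total FPKM over all genes in the table was 90.3%. This sum is weighted to SNRPD2, with a mean of 596 FPKM over the 6 libraries. All genes from 300 FPKM had a median log2 fold change of -0.43. SNRPD1 passed the test with all 6 libraries, with adjusted p from 0.00317 to 0.177 over all alternatives. With median centring and with eBayes without trend, none of the ring genes passed. All 7 were lower at an adjusted p of 0.05 in replicates 1 and 3 alone (10.4% of all genes lower) and with the term for replicate 2 (17.1% of all genes lower). With the GC and length correction 6 of 7 passed (16.5% of all genes lower), and SNRPE did not (-0.11, adjusted p = 0.163). With quantile normalization none of the 7 passed, their median was -0.25, and SNRPD2 was at 0.010.

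SNRPD1, at chr18:19192275-19213485 (plus strand), was at 59.4, 56.4 and 59.0 FPKM (shControl) against 40.1, 44.9 and 33.7 FPKM (shEphexin1). The groups were clear of each other (log2 fold change -0.57, SE 0.12, adjusted p = 0.0404). SNRPF was at 67.0, 63.8 and 65.6 FPKM against 46.9, 51.1 and 36.1 FPKM (-0.56, adjusted p = 0.0583). SNRPB, which encodes the Sm B proteins, was at 333, 239 and 339 FPKM against 212, 158 and 232 FPKM (-0.60, adjusted p = 0.111). In SNRPB the replicate 2 libraries were the lowest of both groups, and the highest shEphexin1 value, 232 FPKM, was just under the lowest shControl value, 239 FPKM. SNRPD2, the most abundant splicing factor mRNA, was at 704, 593 and 720 FPKM against 526, 448 and 584 FPKM (-0.38, adjusted p = 0.148). SNRPG (-0.44) and SNRPD3 (-0.23) did not overlap between groups either, while SNRPE (-0.27) did. The 4 SNRP proteins particular to U1 or U2, SNRPA, SNRPC, SNRPA1 and SNRPB2, had a median log2 fold change of -0.15 and overlapped in every case.

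**Figure D3:**
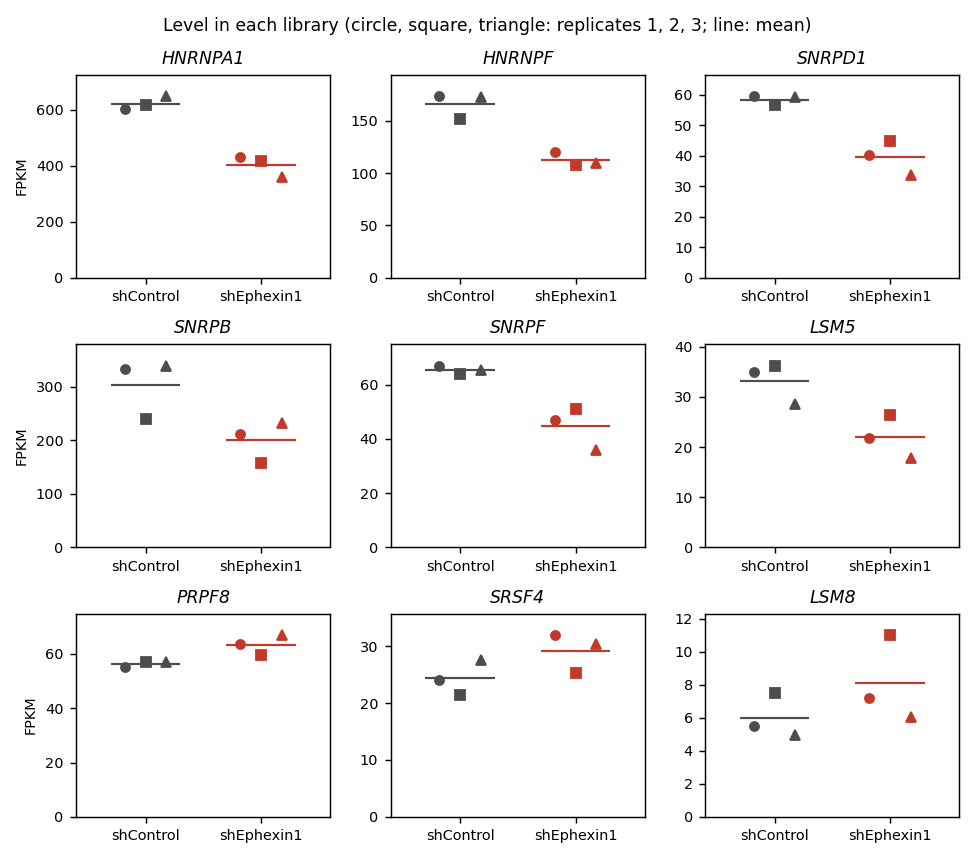
FPKM of 9 splicing factors in each library (axes start at 0), with shControl in grey and shEphexin1 in red, replicates 1, 2 and 3 as circle, square and triangle and the group mean as a line. HNRNPA1, HNRNPF, SNRPD1, SNRPB, SNRPF and LSM5 show no overlap downward and PRPF8 none upward, whereas SRSF4 and LSM8 overlap.

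LSM genes had fold changes of both signs, with a median of -0.29 over the 13 tested and 12 below 0. LSM5, a ring subunit found in both LSM complexes, was at 34.9, 36.2 and 28.6 FPKM (shControl) against 21.7, 26.4 and 17.8 FPKM (shEphexin1). These values did not overlap, and the log2 fold change of -0.61 was the second most negative among the splicing factors, without passing the test (SE 0.17, adjusted p = 0.0813). LSM8, which marks the nuclear ring on U6, was at 5.51, 7.49 and 4.93 FPKM against 7.21, 11.0 and 6.06 FPKM, the highest value being that of shEphexin1 replicate 2. Its log2 fold change of 0.41 was the most positive among them (SE 0.25, adjusted p = 0.393), and the groups overlapped. LSM8 was higher with the term for replicate 2 (adjusted p = 0.0265, 12.2% of all genes higher). With GC and length correction it was higher too (adjusted p = 0.00842, 14.1% of all genes higher). The 42 genes at 1 FPKM or more within 10 Mb of LSM8 on chromosome 7 had a median log2 fold change of 0.56, and the part of this stretch of the chromosome in the value of LSM8 was not tested. Of the LSM2 to LSM8 ring, 6 of 7 genes were below 0 (median -0.28), and LSM8 was the exception. LSM2, a member of both rings, was at 30.7, 28.1 and 37.1 FPKM against 23.6, 22.9 and 32.3 FPKM (-0.29), LSM7 had a log2 fold change of -0.20 and LSM14A, which acts on mRNA in the cytoplasm, of -0.29. None of these passed the test.

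Neighbouring genes differed for other splicing factors as well. Around SNRPD1 on chromosome 18 the 46 expressed genes within 10 Mb had a median of -0.46, around SNRPB on chromosome 20 the 58 genes had -0.39, around HNRNPA1 on chromosome 12 the 186 genes had -0.28 and around HNRNPF on chromosome 10 the 45 genes had -0.24. Around SRSF1 the 126 genes had -0.52 and around SRSF2 the 152 genes had -0.31, both on chromosome 17. Around SNRPF (68 genes, -0.10), LSM5 (69 genes, -0.16), SNRPG (104 genes, 0.017) and SNRPD2 (402 genes, 0.010) the neighbours were nearer 0. Whether the position of these genes had a part in their values was not tested.

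SR proteins leaned the same way with smaller differences, and none of the 13 tested passed the test. Their median log2 fold change was -0.20, and 10 were below 0. SRSF6 was at 77.2, 86.7 and 67.9 FPKM (shControl) against 57.7, 65.3 and 48.9 FPKM (shEphexin1) (-0.43, adjusted p = 0.126). SRSF2 was at 182, 162 and 184 FPKM against 145, 129 and 140 FPKM (-0.35, adjusted p = 0.0844). Both were without overlap, and so were TRA2A (-0.20) and SRSF5 (-0.14, though 0.016 with quantile normalization). SRSF1, the founding member of the family, was at 145, 162 and 135 FPKM against 117, 136 and 100 FPKM (-0.33, adjusted p = 0.203), and shEphexin1 replicate 2 lay above shControl replicate 3. SRSF3 (-0.25), SRSF7 (-0.21) and TRA2B (-0.18) overlapped as well. In replicates 1 and 3 alone, SRSF1, SRSF2, SRSF3, SRSF6 and SRSF9 were lower at an adjusted p of 0.05 (10.4% of all genes lower). SRSF4 went the other way, at 24.0, 21.4 and 27.7 FPKM against 31.9, 25.3 and 30.4 FPKM (0.26, adjusted p = 0.329), with overlap. It was higher with the term for replicate 2 (adjusted p = 0.031, 12.2% of all genes higher) but not with GC and length correction (adjusted p = 0.333).

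The SF3 and U2AF genes, whose products recognise the branch site and the 3′ splice site, had a median log2 fold change of -0.016 over 12 genes, and no gene was without overlap. SF3B1, which contacts the branch point and is recurrently mutated in myelodysplastic syndromes, was at 112, 123 and 114 FPKM (shControl) against 115, 131 and 113 FPKM (shEphexin1), a log2 fold change of 0.039 (SE 0.10) that turned to -0.025 without shEphexin1 replicate 2. U2AF1 (-0.20) overlapped, and so did U2AF2 (-0.031, though 0.070 with quantile normalization). SF3B5, a small subunit of the same complex as SF3B1, had the most negative log2 fold change of this class (-0.44, adjusted p = 0.292). It was at 190, 142 and 223 FPKM against 134, 104 and 172 FPKM. SF3A2, a subunit of the U2 snRNP, was at 28.7, 23.7 and 36.3 FPKM against 38.7, 28.6 and 42.9 FPKM (0.31, adjusted p = 0.417), and U2AF1L4 had a log2 fold change of 0.19. In these 3 genes replicate 2 was the lowest library of both groups. With the term for replicate 2 and with GC and length correction, SF3A2 was higher (adjusted p = 0.0419 and 0.0406) and SF3B5 lower (0.0149 and 0.0278). Of all genes, 12.2% and 14.1% were higher and 17.1% and 16.5% lower in these fits.

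The PRPF genes, of the tri-snRNP and the catalytic core, had a median log2 fold change of -0.023 over 13 genes. PRPF8, the large protein at the centre of the U5 snRNP, was at 55.1, 57.1 and 57.2 FPKM (shControl) against 63.7, 59.8 and 66.9 FPKM (shEphexin1). All shEphexin1 libraries were above all shControl libraries, and the difference did not pass the test (0.17, SE 0.09, adjusted p = 0.343). PRPF6 was at 48.3, 39.0 and 53.4 FPKM against 39.5, 30.5 and 41.4 FPKM (-0.34, adjusted p = 0.277). PRPF3 was at 21.0, 19.7 and 22.5 FPKM against 22.3, 23.5 and 24.2 FPKM (0.15, adjusted p = 0.457).

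Summed over each class, the level in shEphexin1 was 75.8% of shControl for SNRP, 82.4% for hnRNP, 83.5% for LSM, 85.3% for SR, 93.5% for SF3 and U2AF and 97.1% for PRPF genes. Over all genes of the 6 classes it was 83.3%, from 7360 ± 224 to 6129 ± 131 FPKM (SD, n = 3 libraries each). The total FPKM over all genes in the table was itself lower, at 90.3% of shControl, so the percentages for SF3 and U2AF and for PRPF genes lay above that of the total and those of the other classes below it. The sums of SF3 and U2AF genes overlapped between the groups, and those of the other classes did not.

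**Figure D4:**
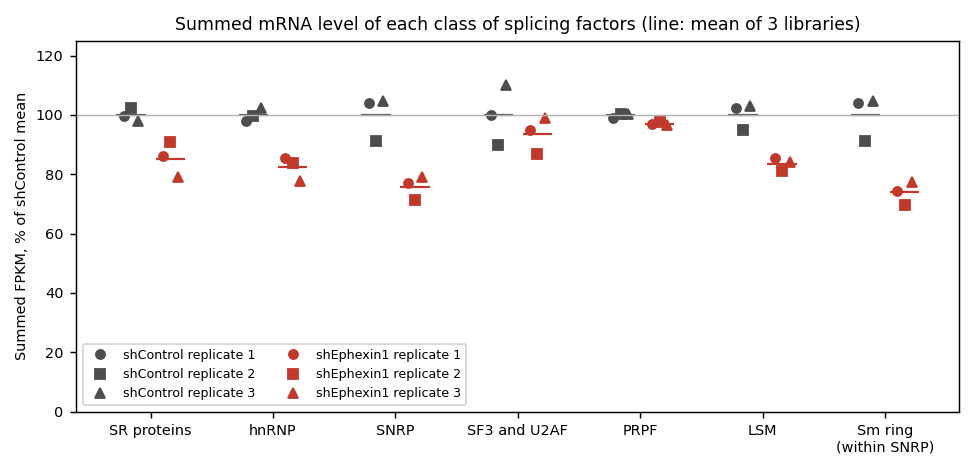
Summed FPKM of each class in each library as a percentage of the shControl mean (vertical axis from 0), with shControl in grey and shEphexin1 in red. The SNRP sum and the Sm ring within it lie lowest, at 75.8% and 73.9%, and the PRPF sum lies near 100%, where the total over all genes in the table is at 90.3%.

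The median deviation from the shControl mean over the 83 genes was -0.098, -0.14 and -0.21 on the log2 scale in shEphexin1 replicates 1, 2 and 3 and between -0.010 and 0.020 in the shControl libraries. Replicate 3 of shEphexin1 was thus the lowest, and without it the median log2 fold change of the splicing factors was -0.15.

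**Figure D5:**
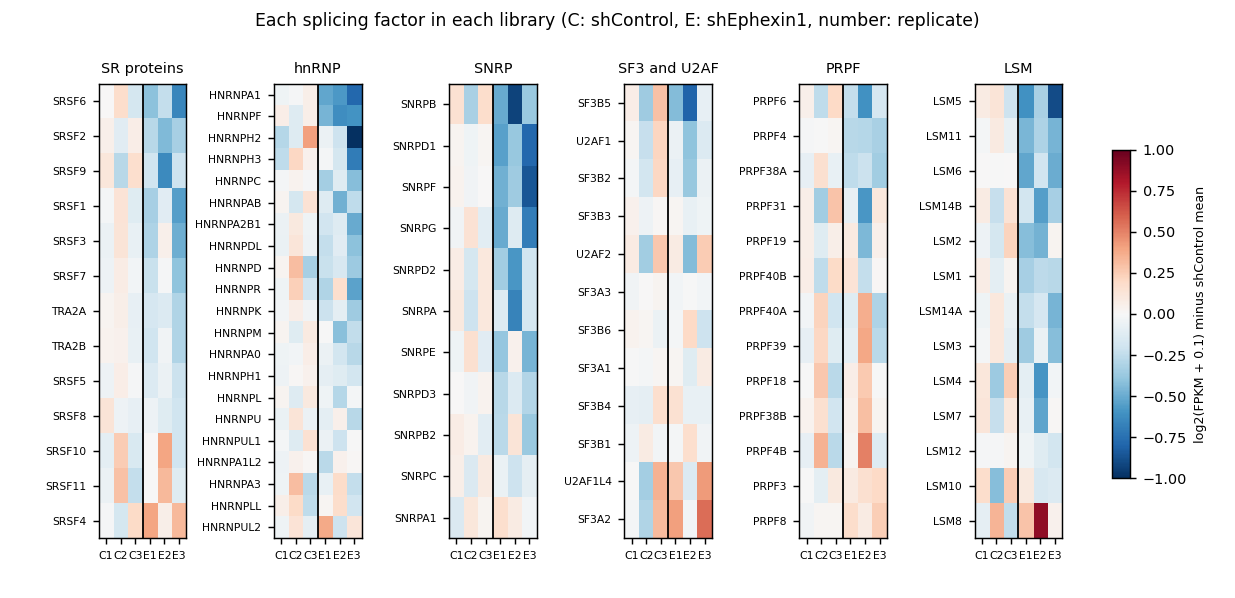
Deviation of log2(FPKM + 0.1) from the shControl mean for each splicing factor (rows, ordered by fold change within a class) in each library (columns), blue for lower and red for higher, with the scale ending at -1 and 1. Blue prevails in the 3 shEphexin1 columns of the SNRP, hnRNP and LSM panels, and the replicate 2 columns C2 and E2 often differ from their neighbours in the same direction.

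Other genes of the splicing pathway, from a list of 133 genes of which 130 were in the table and 126 were tested, were counted by the same rules. None was called at 2-fold. At an adjusted p of 0.05, 6 were lower (4.76% of those tested, near the 4.32% of all genes) and 2 higher (1.59%, against 2.69% of all genes). The groups did not overlap for 25 lower genes (19.8%, against 15.4% of all genes) and 5 higher genes (3.97%, against 12.8%). The genes that passed are named here after their values were seen. STRAP, of the machinery that loads Sm rings onto small nuclear RNA, was lower, at 159, 169 and 151 FPKM (shControl) against 90.6, 104 and 87.6 FPKM (shEphexin1) (-0.77, adjusted p = 0.0101). COIL, which encodes the Cajal body scaffold, was lower with a log2 fold change of -0.64 (adjusted p = 0.0211). TXNL4A of the U5 snRNP (-0.62, adjusted p = 0.023), the U1 snRNP partner LUC7L3 (-0.69, adjusted p = 0.0416), the paraspeckle protein gene NONO (-0.51, adjusted p = 0.034) and SMG8 of nonsense-mediated decay (-0.75, adjusted p = 0.0129) were lower too. All 6 kept their sign in replicates 1 and 3 alone and with quantile normalization, and none of the 6 passed without shControl replicate 1 or without shEphexin1 replicate 1. Lower genes on this list numbered 4 with quantile normalization and with eBayes without trend, and 2 without replicate 3 of either group. They numbered 4 without shControl replicate 2 and 8 without shEphexin1 replicate 2. The expressed genes within 10 Mb had a median log2 fold change of -0.41 around STRAP (108 genes), -0.53 around COIL (133 genes), -0.48 around SMG8 (114 genes), -0.34 around LUC7L3 (194 genes), -0.41 around NONO (51 genes) and -0.32 around TXNL4A (20 genes). The part of position in these calls was not tested.

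SRRM2, a speckle scaffold with SR repeats, was higher, at 31.2, 31.0 and 31.0 FPKM (shControl) against 50.2, 43.3 and 53.8 FPKM (shEphexin1) (0.65, adjusted p = 0.0198). TNPO3, the importin that carries SR proteins into the nucleus, was at 32.2, 32.9 and 33.5 FPKM against 45.7, 42.4 and 44.8 FPKM (0.43, adjusted p = 0.0388). Both calls were lost without replicate 1 or 3 of either group, with adjusted p of up to 0.114 for SRRM2 and 0.195 for TNPO3, and that of TNPO3 also without shControl replicate 2. TNPO3 is on chromosome 7, where the 63 expressed genes within 10 Mb had a median of 0.44. Of the 10 kinase, phosphatase and import genes for SR proteins, 2 were below 0 and the median was 0.18, while the 12 genes of snRNP assembly had a median of -0.19. The SR protein kinase genes SRPK1 (0.0093, though -0.034 in replicates 1 and 3 alone), CLK1 (0.19) and CLK4 (0.18) and the decay helicase gene UPF1 (0.30) did not pass the test. Neither did the regulators PTBP1 (-0.098, though 0.070 with quantile normalization), PTBP2 (0.14), RBFOX2 (0.083) and ESRP1 (-0.17), the last of which was at 0.0735 to 0.231 FPKM, near the limit for testing.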

How the data were processed

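Total RNA of H1299 cells was made into stranded libraries. As the paper's methods and the submitters' processing notes say, reads were mapped to GRCh37/hg19 with TopHat 2.0.13 and the authors used Cuffdiff 2.2.1 with geometric normalization to obtain the FPKM. The annotation is not given in the sources used here. The deposited FPKM hold no counts, so depth is unknown. All 6 value columns were assigned by library name, and 0 were left out.

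Values were transformed as log2(FPKM + 0.1), which understates changes of low genes. A linear model (limma 3.58.1 with trend, R 4.3.3) was fitted to the 16020 genes that reached 0.1 FPKM in 3 or more libraries, and p were adjusted over them by Benjamini and Hochberg, so adjusted p are limma's and two-sided. An exact permutation test of 3 against 3 libraries cannot go below 0.1. Positions, GC content and transcript length came from GENCODE release 44 on GRCh37. Alternatives were other pseudocounts, filters, scalings and priors, a replicate block, a term for replicate 2, replicates 1 and 3 alone, GC and length correction, and each library left out.

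The splicing factors, the gene lists and the settings were chosen with earlier results of these data known. Named genes were those past either threshold, the 6 largest rises and the 6 largest falls at a mean of at least 1 FPKM, the 2 most abundant per class and a fixed set. SNU13, HNRPLL and HNRPDL of the list of other genes were not found under those names.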

Additional observations from a re-analysis of the deposited data

How the results depend on the processing

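With every alternative run, no splicing factor and no other splicing gene was called at 2-fold. The count of splicing factors lower at an adjusted p of 0.05 (3 as reported) was 1 with quantile normalization and 1 with eBayes without trend, 33 with the term for replicate 2, 21 with replicates 1 and 3 alone, 28 with GC and length correction, and 0 to 7 with each library left out. Leaving out replicate 1 or 3 of either group gave 0, shControl replicate 2 gave 2 and shEphexin1 replicate 2 gave 7. Higher ones (0 as reported) were 3 with the term for replicate 2 and 4 with GC and length correction. Non-overlapping lower genes were 49 in replicates 1 and 3 alone (32.1% of all genes) and 26 to 40 otherwise (17.3% to 23.7% of all genes with a library left out), and higher ones 5 (29.7%) and 1 to 4 (14.6% to 23.5%). Among the other splicing genes (6 lower and 2 higher), the counts were 34 and 6 with the term for replicate 2, 27 and 10 with GC and length correction, 19 lower with replicates 1 and 3 alone, 1 higher with eBayes without trend, and 0 to 8 lower and 0 to 2 higher with each library left out. The median log2 fold change of the splicing factors was -0.10 with quantile normalization, -0.13 with GC and length correction and -0.21 to -0.15 with each library left out. NGEF passed the test with the term for replicate 2 (-0.53), in replicates 1 and 3 alone (-0.54) and with GC and length correction (-0.56). The cause of these shifts was not tested.

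With the replicate number as a replicate block, 42 splicing factors were lower and 4 higher, 38 and 10 of the other splicing genes, against 19.7% and 13.8% of all genes, and NGEF (-0.53) passed the test. With GC and length correction and the replicate block, the counts were 34 and 9, and 34 and 13, against 19.9% and 16.7% of all genes, the median was -0.13 and NGEF was at -0.56. The labels do not say whether same-numbered libraries were paired. The deviations of same-numbered libraries correlated at 0.091, 0.43 and 0.33 across genes, and every library correlated best with its own number. The cause of this was not tested.

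Quantile normalization turned the sign of 16 splicing factors, all from negative to positive. Among the genes named it turned that of HNRNPK (0.0678), HNRNPL (0.0835), HNRNPU (0.0134), HNRNPUL1 (0.22), SNRPD2 (0.0102), SRSF5 (0.0158), U2AF2 (0.0699) and PTBP1 (0.0696), and replicates 1 and 3 alone that of SRPK1 (-0.0344), none of them past the test. With each library left out, values crossed 0 for SF3B1 (-0.0255 to 0.0781), U2AF2 (-0.20 to 0.17), ESRP1 (-0.35 to 0.0209), PTBP1 (-0.25 to 0.0444) and SRPK1 (-0.082 to 0.0940). Of 816 values of single genes, 678 kept direction and side of the threshold, 18 fell short of it, 100 came past it and 20 changed sign. A count model was not run, because no counts could be recovered. The depth behind each value is unknown, so small differences of genes near 0.1 FPKM carry no stated precision beyond the spread between libraries.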
